A study of Mus musculus with 12 samples.

Results

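The heat shock proteins and their cochaperones were examined as 1 group of genes in sorted mouse corticotrophs. Members were chosen by symbol, with no measured value in the rule, although earlier results of these data were known when it was set. The rule took the HSP90 genes, the *Hspa*, *Hspb*, *Hspd*, *Hspe* and *Hsph* genes, the *Dnaja*, *Dnajb* and *Dnajc* genes with a plain number, *Bag1* to *Bag6*, *Hsf1*, *Hsf2*, *Stip1* and *Ahsa1*. This gave 80 of the 55304 genes listed. The members were 3 HSP90 genes, 11 HSP70 genes, 3 HSP110 genes, 8 *Hspb* genes, 2 mitochondrial chaperonins, 43 DNAJ genes, 6 BAG genes, 2 HSF genes, *Stip1* and *Ahsa1*. The *Hspb* genes, *Hspb11* included, are grouped here as small heat shock proteins by symbol only.

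All mice were male *Pomc*-eGFP transgenics on a C57Bl6/J background, 8 weeks old at the start, so that every group, controls included, carried the transgene. Group A (control) drank standard water throughout, group B (DEX) received the synthetic glucocorticoid dexamethasone at 2.5 µg/ml in drinking water for 4 weeks, and groups C and D had the same 4 weeks of DEX followed by 7 days (1 week recovery) or 28 days (4 weeks recovery) without it. Each group had 9 mice and gave 3 pools, each of 3 pituitaries per the labels, although the study also mentions smaller pools. Anterior pituitaries were digested with trypsin at body temperature and eGFP positive cells were collected by fluorescence-activated cell sorting. The *Pomc* promoter drives eGFP, so the gate follows the activity of that promoter, and *Pomc* itself was lower under DEX (4241 to 8521 normalised counts) than in control (34562 to 74260.1). The pool was the replicate (n = 3 per group). The RNA of every pool was too little for the fluorometer to measure and was amplified before sequencing.

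Chaperones of the HSP70 and HSP90 families hold unfolded or partly folded proteins and release them in cycles driven by ATP. J domain proteins of the DNAJ families deliver substrates to HSP70 and start its ATPase, while BAG and HSP110 proteins exchange the nucleotide and so let the substrate go. The transcription factor HSF1 switches on many of these genes when cells are heated or otherwise stressed. In steroid target cells HSP70, HSP90 and their cochaperones also fold the glucocorticoid receptor into the state that binds hormone, and a hormone secreting cell such as the corticotroph depends on the chaperones of the endoplasmic reticulum (ER) to fold its precursors.

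Values are the authors' normalised counts, that is CPM on library sizes corrected for composition. Reads on genes ranged from 7719894 to 12848078 per pool (median 10227503.5), and 1 read was worth 0.0787 to 0.127 normalised counts. The corticotroph genes *Pomc* and *Tbx19* were detected in every pool, but so were hormone genes of other pituitary cells, and *Gh* was 67563 or more in every pool. In 1 week recovery pool 3, *Tbx19* was 39.5 against 94.4 to 1490.0 in the other pools, and *Avpr1b*, a receptor of corticotrophs, was 1.56 against 9.30 to 130.1. The sum of 6 corticotroph markers, *Pomc* included, was 43869 in that pool. It lay within the control range of 35294 to 75533 and was the lowest of the 1 week pools (43869 to 286223). The melanotroph factor *Pax7* was at most 0.336 in any pool, while 4 melanotroph markers together summed to 68.4 to 175. The study could not exclude some melanotrophs among the sorted cells. In such sorted pools, fewer cells of a type and less RNA per cell cannot be told apart.

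Most chaperone genes were well expressed. Of the 80 members, 78 exceeded 0.1 normalised counts in at least 3 libraries and were tested. *Dnajb8* was listed at 0 in every pool, where the limit of 3 reads is 0.236 to 0.382 normalised counts. *Dnajc22* had 2 reads in control pool 2, 2 reads in 1 week pool 1 and 1 read in 4 weeks pool 3. Per kb of exon and averaged over the 12 pools, the highest level belonged to *Dnajb1* (730.3), the inducible cytosolic J protein, followed by *Hsp90ab1* (491), the constitutive cytosolic HSP90, and *Hspa8* (365), the constitutive cytosolic HSP70. *Hspa1b* (362), the small heat shock protein *Hspb1* (359), the ER chaperone *Hspa5* (321) and *Hspa1a* (263) came next. Single pools of *Hspa1b* ranged from 79.6 to 4118 normalised counts, so that *Hspa8*, *Hspa1b*, *Hspb1*, *Hspa5* and *Hspa1a* do not differ in this order beyond their spread. At the low end 5 members averaged under 1 normalised count. Beside *Dnajb8* and *Dnajc22* these were *Hspb7*, *Hspb9* and *Dnajb7*, named after their values were seen, with 7, 9 and 34 reads over all pools.

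**Figure D1:**
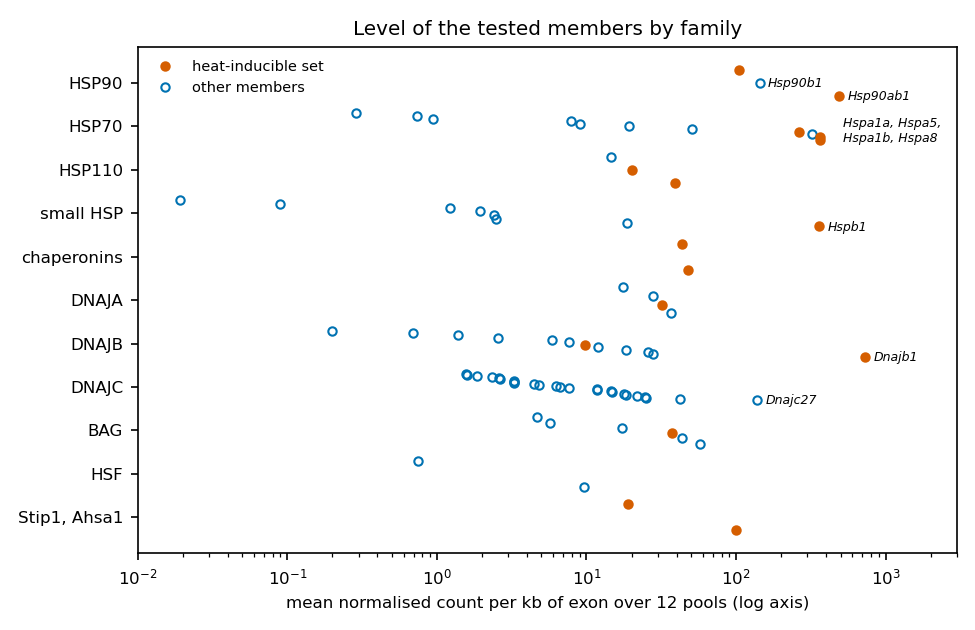
Mean normalised count per kb of exon over the 12 pools (horizontal, log axis) for the 78 tested members, by family (vertical). Filled points are the 16 genes of a heat-inducible set and open points the other members, and *Dnajb1* lies farthest to the right at 730.

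The first question was whether any member differed between the 4 groups. In limma's F test over the 3 contrasts against control, 0 of 78 members had an adjusted p under 0.05, while 0.315% of the 24736 genes tested did. At an unadjusted p under 0.05 there were 3 members (*Hspa4l*, *Bag3* and *Dnajb1*) against 9.21% of all genes. On the recovered reads, edgeR's quasi-likelihood test and DESeq2 also called 0 members, with 3 and 5 at an unadjusted p under 0.05. Only edgeR's likelihood ratio test with trended dispersion called any, and these were *Hspb1*, *Hspa1a* and *Hspa1b*.

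Each of the 6 pairwise contrasts likewise called 0 members, where the share of all genes called was 0.121% for DEX against control, 0% for either recovery group against control, 0.433% and 0.873% for 1 week and 4 weeks recovery against DEX, and 0% between the recovery groups. At an unadjusted p under 0.05 limma gave 4 members for DEX against control (6.8% of all genes), 2 for 1 week recovery against control (3.79%) and 6 for 4 weeks recovery against control (6.35%). Against DEX it gave 1 member at 1 week (10.8%) and 7 at 4 weeks (9.94%), and between the recovery groups 1 (5.47%). The pools of 2 groups did not overlap in 11 members for DEX against control (14.1%, against 12.8% of all genes), in 4 for 1 week recovery against control (5.13% against 6.08%) and in 14 for 4 weeks recovery against control (17.9% against 13.2%). Against DEX they did not overlap in 10 members at 1 week (12.8% against 13.8%) and in 22 at 4 weeks (28.2% against 19.5%), and between the recovery groups in 3 (3.85% against 8.92%). The share of members was near that of all genes under DEX and at 1 week, and above it for 4 weeks recovery against DEX. The median log2 difference over the members was -0.0037 for DEX, 0.01 for 1 week and -0.07 for 4 weeks recovery, each minus control, beside -0.02, 0.0022 and 0 over all genes. Contrasts against control share the control pools.

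**Figure D2:**
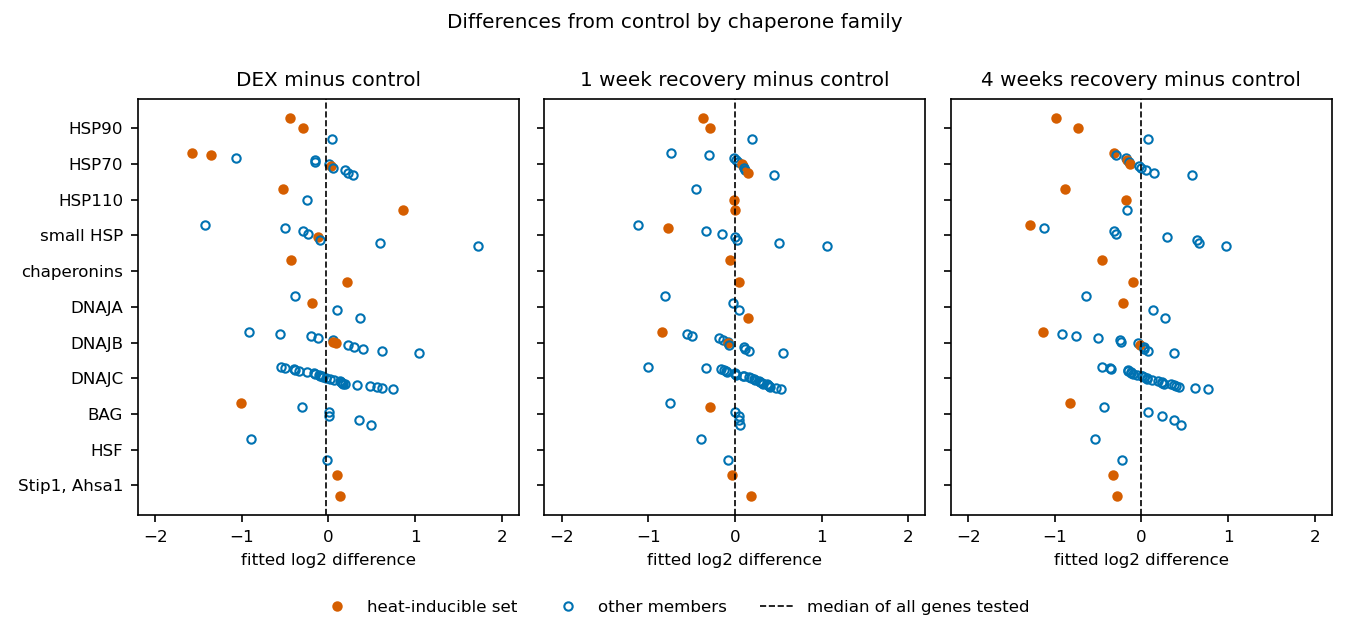
Fitted log2 difference from control (horizontal) of each tested member by family (vertical) for DEX, 1 week and 4 weeks recovery, with the median of all genes tested as a dashed line. In the right panel all 16 filled points of the heat-inducible set lie below 0, and none of the differences passed the adjusted threshold.

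In a set of 16 members listed as heat-inducible, single pools stood out more than groups did. The set also held *Hspa8* and *Hsp90ab1*, the constitutive cytosolic HSP70 and HSP90. *Hspa1a* and *Hspa1b* encode the inducible cytosolic HSP70 and lie next to each other on GRCm38 (GENCODE M21) at chromosome 17, 34969190 to 34972156, minus strand, and chromosome 17, 34956436 to 34959238, minus strand, with 9951 bases between them. *Hspa1a* had 165, 568 and 2724 in the control pools, 172, 767 and 72.6 in the DEX pools, 374, 321 and 2534 in the 1 week pools and 674, 715 and 271 in the 4 weeks pools. *Hspa1b* had 202, 763 and 2591 in the control pools, 244, 1229 and 79.6 in the DEX pools, 403, 329 and 4118 in the 1 week pools and 947, 970.4 and 309 in the 4 weeks pools. Control pool 3 and 1 week recovery pool 3 were the highest for both genes and DEX pool 3 the lowest, and every pair of groups overlapped. The SD between pools of a group was 1.75 log2 units for *Hspa1b* and 1.62 for *Hspa1a*, larger than in 98% and 96.9% of genes within 0.5 log2 units of their level. The median SD was 0.42 over the 75 members with a mean above 1 and 0.46 over all genes with a mean above 1. For DEX minus control the fitted difference of *Hspa1a* was -1.58 ± 0.97 (SE, unadjusted p = 0.125, adjusted p = 0.828), with a 95% interval from -3.65 to 0.49.

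The 2 genes cannot be fully separated, since their coding sequences are 99.6% identical (1915 of 1923 aligned bases) and read pairs were kept only above a mapping quality limit. The ratio of *Hspa1b* to *Hspa1a* was 0.951 to 1.63 over the pools. The chemistry does not mark strand, and the predicted gene *Gm20481* overlaps 19.0% of the exon bases of *Hspa1a* on the opposite strand. Its value was 0.314 to 0.384 of that of *Hspa1a* in every pool, so their reads cannot be told apart.

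**Figure D3:**
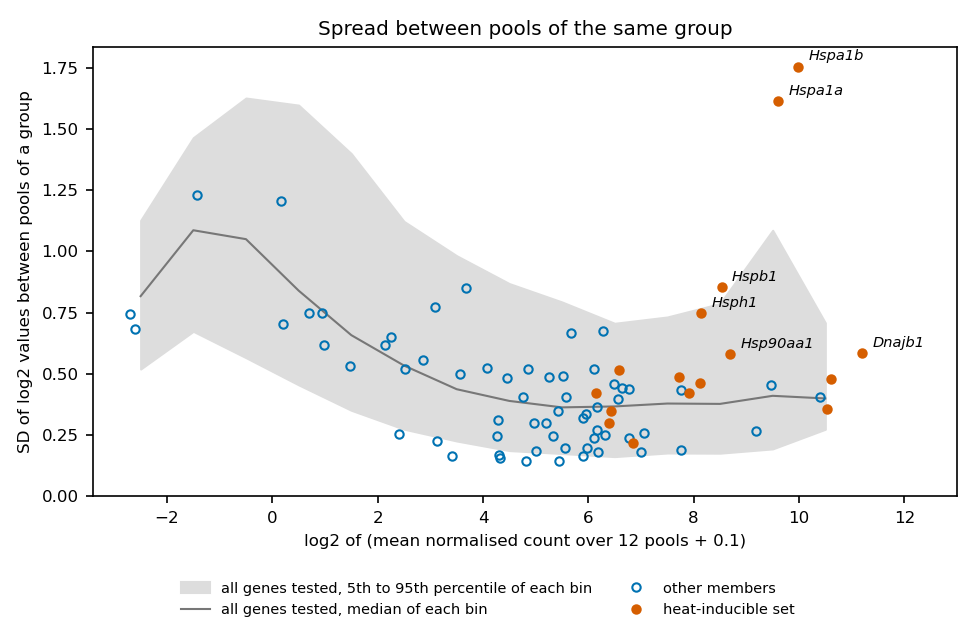
SD of log2 values between the 3 pools of a group, averaged over groups (vertical), against the log2 mean level (horizontal) for the 78 tested members, with the median and the 5th to 95th percentile of all genes tested in bins of 1 log2 unit. *Hspa1b* (1.75) and *Hspa1a* (1.62) lie above the shaded band.

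Some other heat-inducible genes, among them *Hspb1*, *Hsph1* and *Bag3*, also had their highest values in control pool 3 and 1 week pool 3. This did not hold for the whole set, as *Hspa8*, *Hspd1* and *Hspa4l* lay below their mean over all pools in both. *Dnajb1* (chromosome 8, 83608193 to 83612653, plus strand) had 1744, 2799.5 and 4939 in the control pools, 2896, 3634 and 2744 in the DEX pools, 1545, 1094 and 2502 in the 1 week pools and 1669, 1714 and 799.8 in the 4 weeks pools. Control pool 3 and 1 week pool 3 were the highest of their groups, but only control pool 3 lay above every DEX pool. All 3 pools of 4 weeks recovery lay below every control and every DEX pool, and the 1 week pools lay below every DEX pool. The fitted difference was -1.13 ± 0.47 (SE, unadjusted p = 0.0296, adjusted p = 0.754) for 4 weeks recovery minus control and -1.22 ± 0.47 (SE, unadjusted p = 0.0205, adjusted p = 0.347) for 4 weeks recovery minus DEX. With array weights, which give less weight to pools that deviate from their group over all genes, the second passed in limma (adjusted p = 0.0330).

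*Hspb1* (chromosome 5, 135887919 to 135889563, plus strand) encodes the main small heat shock protein, which holds unfolding proteins without ATP and binds actin filaments. It had 267, 311 and 1059 in the control pools, 351, 513 and 379 in the DEX pools, 158, 176 and 643 in the 1 week pools and 269, 198 and 116 in the 4 weeks pools. Every 4 weeks pool lay below every DEX pool, whereas the control pools overlapped with them. The difference was -1.16 ± 0.54 (SE, unadjusted p = 0.050, adjusted p = 0.503) from DEX and -1.28 ± 0.54 (SE, unadjusted p = 0.0323, adjusted p = 0.754) from control. Without control pool 3 the difference from control was -0.65. The difference from DEX passed with array weights and without control pool 3 and 1 week pool 3 together, and that from control passed only in edgeR's likelihood ratio test (adjusted p = 0.0320).

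*Hsph1*, the inducible HSP110 that acts as nucleotide exchange factor, had 249, 266 and 504 in the control pools, 252, 294 and 150.3 in the DEX pools, 142, 398 and 580.0 in the 1 week pools and 225, 247 and 96.3 in the 4 weeks pools. The 4 weeks pools lay below all control pools, with a difference of -0.88 ± 0.49 (SE, unadjusted p = 0.0889, adjusted p = 0.817). It was -0.45 without 4 weeks pool 3 and -0.56 without control pool 3. The BAG cochaperone *Bag3*, which links HSP70 to autophagy, had 84.3, 119.9 and 205 in the control pools, 73.3, 82.2 and 42.4 in the DEX pools, 75.6, 117 and 129 in the 1 week pools and 103, 66.1 and 54.6 in the 4 weeks pools. All DEX pools lay below all control pools, with a log2 difference of -1.0 ± 0.36 (SE, limma unadjusted p = 0.0132, adjusted p = 0.526), and of -0.66 without control pool 3. Control pool 3 and 1 week pool 3 were again the highest of their groups.

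**Figure D4:**
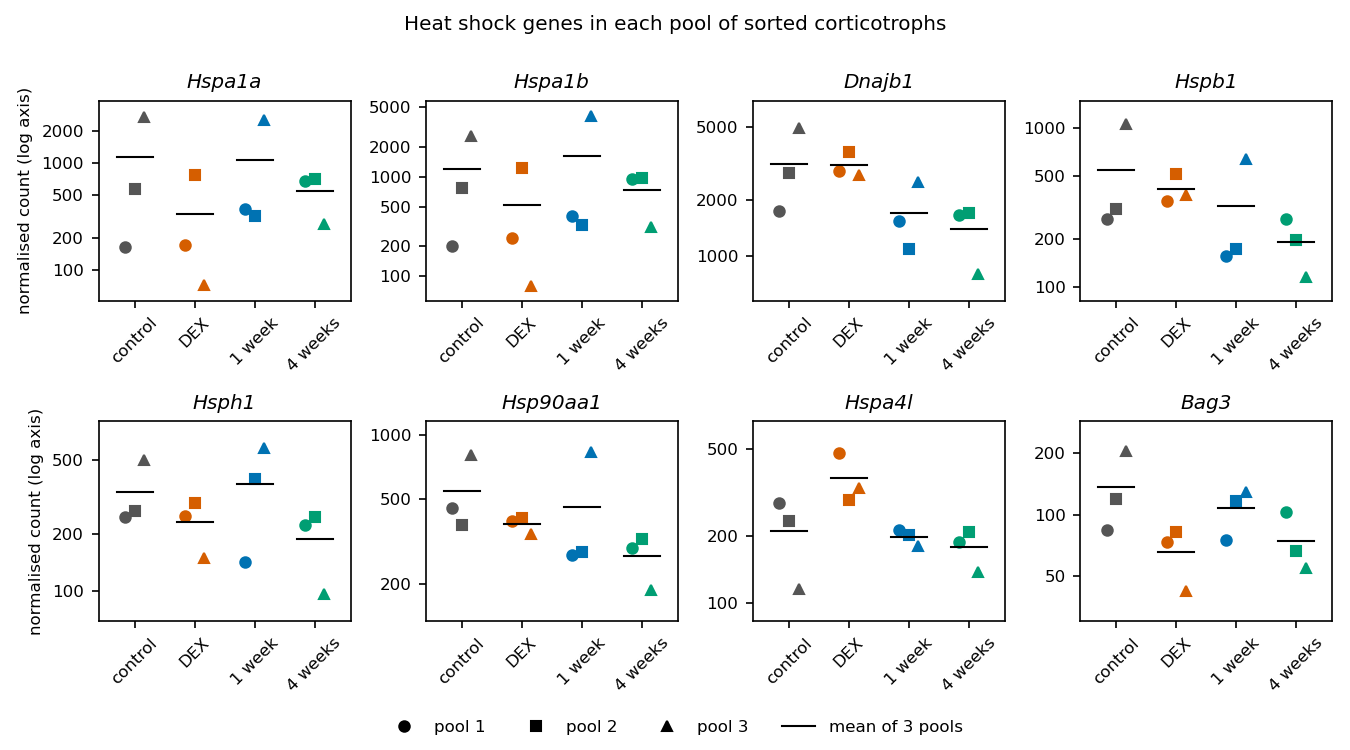
Normalised count (vertical, log axis) of 8 members in each pool, with pools 1, 2 and 3 of a group as circle, square and triangle and the mean of the 3 pools as a bar. Triangles of control and 1 week recovery lie at the top of their group for *Hspa1a*, *Hspa1b*, *Dnajb1*, *Hspb1*, *Hsph1* and *Hsp90aa1*. Those of 4 weeks recovery lie at the bottom of their group in every panel.

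Over the 16 genes, 10 (62.5%) had their highest value in control pool 3 or 1 week recovery pool 3, against 27.2% of all genes. These pools were picked after seeing that they were highest for *Hspa1a* and *Hspa1b*, which belong to the set, so the share is descriptive. In 4 weeks recovery pool 3, also not fixed in advance, 10 (62.5%) had their lowest value. The share of all genes there, 4.01%, is too low, since a gene without reads in several pools was counted only for the first. The summed level of the set was 7002, 10001 and 17597 in the control pools, 8903, 11275 and 7634 in the DEX pools, 6412, 8235 and 15419 in the 1 week pools and 8002, 8259 and 4310.1 in the 4 weeks pools. Control pool 3 and 1 week pool 3 were the highest of the 12 and 4 weeks pool 3 the lowest, and all 4 groups overlapped.

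In the fitted differences all 16 genes were lower at 4 weeks recovery than in control (50% of all genes were lower), with a median of -0.32, and 15 of 16 were lower than at 1 week (median -0.38). Against DEX 13 of 16 were lower at 4 weeks (median -0.33), and 8 of 16 without 4 weeks recovery pool 3. The genes share the same pools and are not independent. Without 4 weeks recovery pool 3, 10 of 16 were lower than control (median -0.13) and 10 of 16 lower than 1 week (median -0.08). Without control pool 3, 13 of 16 were lower than control, and without 1 week pool 3, 11 of 16 were lower than 1 week. At 4 weeks, 4 of the 16 genes did not overlap with control and all 4 were lower (25.0%, against 6.42% of all genes lower without overlap), and against DEX 6 were lower without overlap (37.5%, against 9.67%). The first 4 were *Dnajb1*, *Hsph1*, *Hsp90aa1* and *Hsp90ab1*, and the 6 were *Dnajb1*, *Hsp90aa1*, *Hsp90ab1*, *Hspb1*, *Hspa4l* and *Hspd1*. For DEX and 1 week recovery minus control the set was divided, with 9 of 16 lower in each. Under DEX the count was 8 to 12 over the alternatives. At 1 week it was 16 with plain library totals (67.6% of all genes were then lower), 13 with array weights, 12 without control pool 1 and 7 without 1 week pool 1.

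The 2 pools that were high in heat-inducible genes also differed from the other pools of their group in some other genes, but not in all those examined. The 8 endothelial markers had a summed level of 6.63 to 13.5 in the DEX pools. On this sum control pool 3 had 81.0 against 10.5 and 43.5 in the other control pools, and 1 week pool 3 had 196 against 32.3 and 45.5. The 4 weeks pools had 85.5 to 165, beside *Hspa1a* values of 674, 715 and 271. Over 16 immediate early genes known to respond to tissue dissociation, control pool 3 had a sum of 21454, below the 23917 and 24569 of the other control pools, while 6 of the 16 genes (37.5%, against 10.4% of all genes) had their highest value of the 12 pools there and 0 their lowest. The sum in 1 week pool 3, 13715, was the lowest of the 12, and 8 of the 16 genes had their lowest value there (50.0%, against 10.7% of all genes). In that share of all genes, too, a gene without reads in several pools was counted only for the first. The somatotroph marker sum of control pool 3 was 223545 against 80144 and 96117 in the other controls, and that of 1 week pool 3 was 180931 against 93240.0 and 222923. In the 4 weeks pools this sum was 152291 to 267854. The part of these cells and genes in the heat shock values was not tested.

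The promoters of the HSP70 pair, *Hspb1* and *Hspe1*, the lid of the mitochondrial chaperonin, are shown as examples. They were picked from the genes that had their 2 highest values in control pool 3 and 1 week recovery pool 3 and hold a match before the start. Of the 16 heat-inducible genes, 8 had their 2 highest values in these pools. The others were *Hsph1*, *Bag3*, *Hsp90aa1* and *Hsp90ab1*. *Hsph1*, with matches of 2 units before and after the start, meets the same conditions and is not shown. *Bag3* had 1 match after the start and none before it, and no window was matched for *Hsp90aa1* and *Hsp90ab1*. Of the heat-inducible genes without this pool pattern, *Hspd1*, *Dnaja1* and *Dnajb4* also hold a match of 2 units before the start. *Hspa4l*, *Dnajb1*, *Stip1* and *Ahsa1* hold none, and *Hspa8* had no window. HSF1 is known to bind arrays of the unit GAA, each inverted against the next and 2 bases apart. Each line gives the 150 bases before the transcription start from RefSeq on GRCm38.p6, 5′ to 3′ along the gene. Capitals mark GAANNTTC or TTCNNGAA, which are 2 units, in the first 3 genes. In *Hspe1* they mark overlapping matches of 3 units, in which either pair is followed by a further inverted unit after 2 bases.
*Hspa1a*, chr17:34972157-34972306, minus strand: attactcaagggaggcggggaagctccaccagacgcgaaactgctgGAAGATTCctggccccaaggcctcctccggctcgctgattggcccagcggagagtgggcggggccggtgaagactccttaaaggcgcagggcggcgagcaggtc
*Hspa1b*, chr17:34959239-34959388, minus strand: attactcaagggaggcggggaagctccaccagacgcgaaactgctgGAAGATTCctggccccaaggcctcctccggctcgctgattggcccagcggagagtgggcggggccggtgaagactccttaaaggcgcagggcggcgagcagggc
*Hspb1*, chr5:135887769-135887918, plus strand: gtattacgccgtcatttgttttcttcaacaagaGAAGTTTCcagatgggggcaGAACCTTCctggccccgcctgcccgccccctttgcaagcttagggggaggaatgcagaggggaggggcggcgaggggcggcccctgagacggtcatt
*Hspe1*, chr1:55087998-55088147, plus strand: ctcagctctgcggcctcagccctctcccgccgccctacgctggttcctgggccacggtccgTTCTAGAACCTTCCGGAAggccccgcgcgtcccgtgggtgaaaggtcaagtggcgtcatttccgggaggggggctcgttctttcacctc

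The windows of *Hspa1a* and *Hspa1b*, from 250 bases before the start to 50 after it, were identical in 296 of 300 bases, and both held 1 match of 2 units at 104 bases before the start. RefSeq windows were matched for 65 of the 80 members. On both strands, 3 units were found in 0.603% of all 32851 windows and in 6 of 83 member windows (7.23%), which belonged to *Hspd1*, *Hspe1*, *Hsph1* and *Dnajb6*. *Hspd1* and *Hspe1*, the 2 parts of the mitochondrial chaperonin, start head to head, so their windows hold the same 3-unit matches on opposite strands. *Dnajb6*, a J protein of the cytosol and nucleus, is no member of the heat-inducible set and is named for this count alone. The shorter 2-unit element, which lies inside every 3-unit match, was in 15.1% of all windows and in 21.7% of member windows. The glucocorticoid response element was searched as GNACA and TGTNC with any 3 bases between them, which reads the same on both strands. It was in 0.475% of all windows and in 0 member windows, which says only that these letters are not in these windows.

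*Hspa4l* had the smallest p of the members. It encodes an HSP110 relative that serves HSP70 as nucleotide exchange factor and lies at chromosome 3, 40744495 to 40796103, plus strand. It had 284, 236 and 116 in the control pools, 476, 294 and 331 in the DEX pools, 214, 203 and 180.4 in the 1 week pools and 188, 209 and 138 in the 4 weeks pools. The 3 DEX pools lay above all 9 other pools. The difference was 0.86 ± 0.32 (SE, unadjusted p = 0.0167, adjusted p = 0.559) for DEX minus control, -0.85 ± 0.32 (SE, unadjusted p = 0.0169, adjusted p = 0.306) for 1 week recovery minus DEX and -1.03 ± 0.32 (SE, unadjusted p = 0.00542, adjusted p = 0.179) for 4 weeks recovery minus DEX. The recovery groups overlapped with control, and their intervals against it ran from -0.68 to 0.68 at 1 week and from -0.85 to 0.50 at 4 weeks. Over 24 alternatives, the adjusted p of 4 weeks recovery minus DEX ranged from 0.0175 to 0.578, and it passed with array weights and without control pool 3 and 1 week pool 3 together (adjusted p = 0.0310). The third HSP110 gene, *Hspa4*, was 99.0, 104 and 74.8 in control and 85.9, 55.3 and 62.9 at 1 week, with overlapping pools and a difference of -0.45 ± 0.24 (SE, unadjusted p = 0.0806, adjusted p = 1.0).

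The cytosolic HSP90 genes fold the glucocorticoid receptor. The inducible *Hsp90aa1* (chromosome 12, 110690605 to 110702728, minus strand) had 456, 379 and 801 in the control pools, 394, 407 and 341 in the DEX pools, 274, 281 and 828 in the 1 week pools and 295, 325 and 188 in the 4 weeks pools. Every 4 weeks pool lay below every control and DEX pool, with a difference from control of -0.98 ± 0.40 (SE, unadjusted p = 0.0278, adjusted p = 0.749). This difference ranged from -1.20 to -0.66 over 24 alternatives. The constitutive *Hsp90ab1* (chromosome 17, 45567775 to 45573271, minus strand) had 1609.7, 1430.0 and 2459.8 in the control pools, 1498, 1376 and 1488 in the DEX pools, 963, 1706 and 1881 in the 1 week pools and 1121, 1246 and 883 in the 4 weeks pools. Its 4 weeks pools also lay below every control and DEX pool, with a difference from control of -0.73 ± 0.36 (SE, unadjusted p = 0.0587, adjusted p = 0.795). Over the alternatives this was -0.89 to -0.50. Of the cochaperones, *Stip1*, which hands substrates from HSP70 to HSP90, was 197, 221 and 211 in control, 243, 210.2 and 223 under DEX, 149, 413 and 140.4 at 1 week and 169.8, 228 and 131 at 4 weeks. *Ahsa1*, which starts the HSP90 ATPase, had its highest value of 127 in 1 week pool 2, as did *Stip1*. The 4 weeks minus 1 week difference of *Ahsa1* was -0.51 ± 0.26 (SE, unadjusted p = 0.0690, adjusted p = 0.948), and -0.28 without 1 week pool 2. For DEX minus control the 95% interval of the log2 difference was from -1.30 to 0.41 for *Hsp90aa1*, from -1.06 to 0.47 for *Hsp90ab1*, from -0.64 to 0.85 for *Stip1* and from -0.41 to 0.69 for *Ahsa1*.

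None of the 11 HSP70 genes had an unadjusted p under 0.05 in the F test or in any of the 6 contrasts. The constitutive *Hspa8* (chromosome 9, 40800984 to 40810087, plus strand) had 1165, 2203 and 1342 in the control pools, 1630.0, 1714 and 1314 in the DEX pools, 1487, 2539.8 and 1115 in the 1 week pools and 1687, 1713 and 909.9 in the 4 weeks pools. Pool 2 was the highest of each group, and the F test adjusted p was 0.994. Its 95% intervals against control ran from -0.84 to 0.90 for DEX, from -0.77 to 0.96 for 1 week and from -1.0 to 0.74 for 4 weeks recovery. The testis-enriched *Hspa1l*, named after its values were seen, was 0.449 to 4.35, and an antisense gene covers 71.9% of its exon bases.

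The ER chaperones form a set of 8 members, none of which passed a test. *Hspa5* (chromosome 2, 34771970 to 34777547, plus strand), the ER HSP70 and a regulator of the unfolded protein response, had 1548, 1589 and 894 in the control pools, 1472, 1325 and 1145 in the DEX pools, 1641, 1772 and 817 in the 1 week pools and 1345, 1529 and 1201 in the 4 weeks pools. Control pool 3 and 1 week pool 3, the pools high in heat-inducible genes, were the lowest for *Hspa5*. The mean over 3 pools ± SD was 1344 ± 389.9 for control, 1314 ± 164 for DEX, 1409.9 ± 518 for 1 week and 1358 ± 165 for 4 weeks recovery. The F test of *Hspa5* in limma gave an adjusted p of 1.000. *Hsp90b1*, the ER HSP90, was 659, 583 and 418 in control, 640.2, 572 and 478 under DEX, 797, 612 and 492 at 1 week and 579.7, 575 and 566 at 4 weeks.

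Of the ER J proteins, *Dnajb9*, a target of the unfolded protein response that feeds back on its sensor, was 55.3, 75.5 and 35.1 in control and 71.6, 97.3 and 75.7 under DEX, with overlapping pools. Its difference of 0.61 ± 0.29 (SE, unadjusted p = 0.0492, adjusted p = 0.731) was the only one of the set at an unadjusted p under 0.05 in any contrast, and it was 0.32 without control pool 3. *Dnajc3*, which inhibits the kinase that slows translation in ER stress, was 205, 209 and 175 in control and 238, 252 and 216 at 4 weeks, where all pools lay above control by a log2 difference of 0.26 ± 0.23 (SE, unadjusted p = 0.272, adjusted p = 0.904). In the fitted differences 7 of the 8 ER genes were higher than control under DEX, at 1 week and at 4 weeks, with medians of 0.13, 0.19 and 0.17. These share the low control pool 3. The summed level of the set was 1696 there against 2731 and 2703 in the other control pools.

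The mitochondrial members held the matrix HSP70 *Hspa9*, the chaperonin pair and their J proteins, 9 genes in all. *Hspa9* had 256, 247 and 124 in the control pools, 237, 224 and 220.2 in the DEX pools, 258, 257 and 123 in the 1 week pools and 250.4, 209 and 202 in the 4 weeks pools. Control pool 3 and 1 week pool 3 were again the lowest, while the remaining 10 pools lay between 202 and 258. *Hspd1*, the chaperonin itself, was 126, 119 and 95.9 in control, 136, 132 and 124 under DEX, 106, 136 and 88.4 at 1 week and 109, 119.8 and 88.9 at 4 weeks. Its lid *Hspe1* was 65.5, 67.0 and 108, 51.8, 68.0 and 54.8, 57.4, 69.8 and 129.6 and 62.8, 67.9 and 42.5 in the same order of groups. In control pool 3 and 1 week pool 3 *Hspe1* had its 2 highest values of all pools, whereas *Hspd1* had the lowest value of its group in both. The median log2 difference from control over the set was 0.17 under DEX, 0.05 at 1 week and 0.06 at 4 weeks.

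Among the other J proteins of the DNAJA and DNAJB families, *Dnaja1*, a farnesylated partner of cytosolic HSP70, was 232, 355 and 264 in control, 283, 362 and 142 under DEX, 297, 267 and 373 at 1 week and 316, 261 and 171 at 4 weeks, with all groups overlapping. *Dnaja4* was 136, 95.5 and 169 in control and 84.8, 46.3 and 104 at 1 week, a difference of -0.81 ± 0.32 (SE, unadjusted p = 0.0245, adjusted p = 1.0) that was -0.47 without 1 week pool 2, but *Wdr61* covers 44.1% of its exon bases on the opposite strand. A pair of low genes had a higher mean under DEX than in the other groups. *Dnajb3* was 3.15, 3.76 and 4.93 under DEX and 1.20, 0.985 and 2.80 at 4 weeks, a difference of -1.32 ± 0.51 (SE, unadjusted p = 0.0208, adjusted p = 0.350). *Dnajb13*, a part of the axoneme of cilia, was 2.57, 3.84 and 3.03 under DEX and 1.39, 0.657 and 1.08 at 4 weeks, a difference of -1.54 ± 0.58 (SE, unadjusted p = 0.0175, adjusted p = 0.327), and the abundant *Ucp2* covers 11.2% of its exon bases on the opposite strand. For both genes the DEX pools lay above all recovery pools and overlapped with control. *Dnajb13* passed with array weights only (limma, adjusted p = 0.0435). Of the 12 tested DNAJB genes, 10 were lower at 4 weeks than under DEX, with a median log2 difference of -0.17.

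The DNAJC family held 26 genes, of which 25 were tested. Relative to control 18 of 25 were higher at 1 week (median log2 difference 0.19) and 16 of 25 at 4 weeks (median 0.06), and under DEX 12 were higher. Over the 6 contrasts only *Dnajc12* had an unadjusted p under 0.05. *Dnajc12*, a J protein of the pathway that folds amino acid hydroxylases, was 23.5, 21.3 and 24.0 in control, 23.3, 27.0 and 25.2 under DEX, 33.8, 37.3 and 29.0 at 1 week and 28.2, 35.2 and 30.3 at 4 weeks. Every recovery pool lay above every control and DEX pool. The differences from control were 0.53 ± 0.22 (SE, unadjusted p = 0.0307, adjusted p = 1.0) at 1 week and 0.44 ± 0.22 (SE, unadjusted p = 0.0686, adjusted p = 0.800) at 4 weeks. *Dnajc9*, a histone chaperone, was 59.5, 51.5 and 52.8 in control, 48.4, 50.9 and 52.7 under DEX, 71.9, 80.0 and 54.7 at 1 week and 62.9, 61.2 and 69.7 at 4 weeks. Every recovery pool lay above every DEX pool, and the 1 week minus DEX difference was 0.42 ± 0.22 (SE, unadjusted p = 0.0675, adjusted p = 0.507). *Dnajc19*, of the mitochondrial import motor, was 37.7, 39.7 and 43.7 under DEX and 55.4, 52.6 and 57.7 at 1 week, with separate pools and a difference of 0.45 ± 0.23 (SE, unadjusted p = 0.0644, adjusted p = 0.503).

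*Dnajc27*, which encodes a Rab-like protein with a J domain, was the DNAJC gene with the highest level and lies 121940 bases beyond *Pomc* on the same chromosome (chromosome 12, 4082583 to 4110606, plus strand). It had 381, 683 and 471 in the control pools, 719, 1026 and 782 in the DEX pools, 413, 656 and 981 in the 1 week pools and 993, 802 and 558 in the 4 weeks pools. The DEX pools lay above all control pools, with a difference of 0.74 ± 0.36 (SE, unadjusted p = 0.0556, adjusted p = 0.741), while *Pomc* was lower in every DEX pool than in every control pool. *Dnajc25* ranged from 1.91 to 18.5, and its 1 week recovery minus control difference was -1.01 ± 0.54 (SE, unadjusted p = 0.0794, adjusted p = 1.0). It was -0.35 without 1 week pool 2 and -0.56 without control pool 3. *Dnajc13*, which acts at endosomes, was 23.7, 19.5 and 20.7 at 1 week and 16.7, 15.7 and 14.5 at 4 weeks, with separate pools and a difference of -0.44 ± 0.27 (SE, unadjusted p = 0.117, adjusted p = 1.0). Chosen after their values were seen, *Dnajc5*, the cysteine string protein of secretory vesicles, stayed between 111 and 163 in all 12 pools, and *Dnajc7*, a cochaperone of both HSP70 and HSP90, between 58.6 and 83.0.

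**Figure D5:**
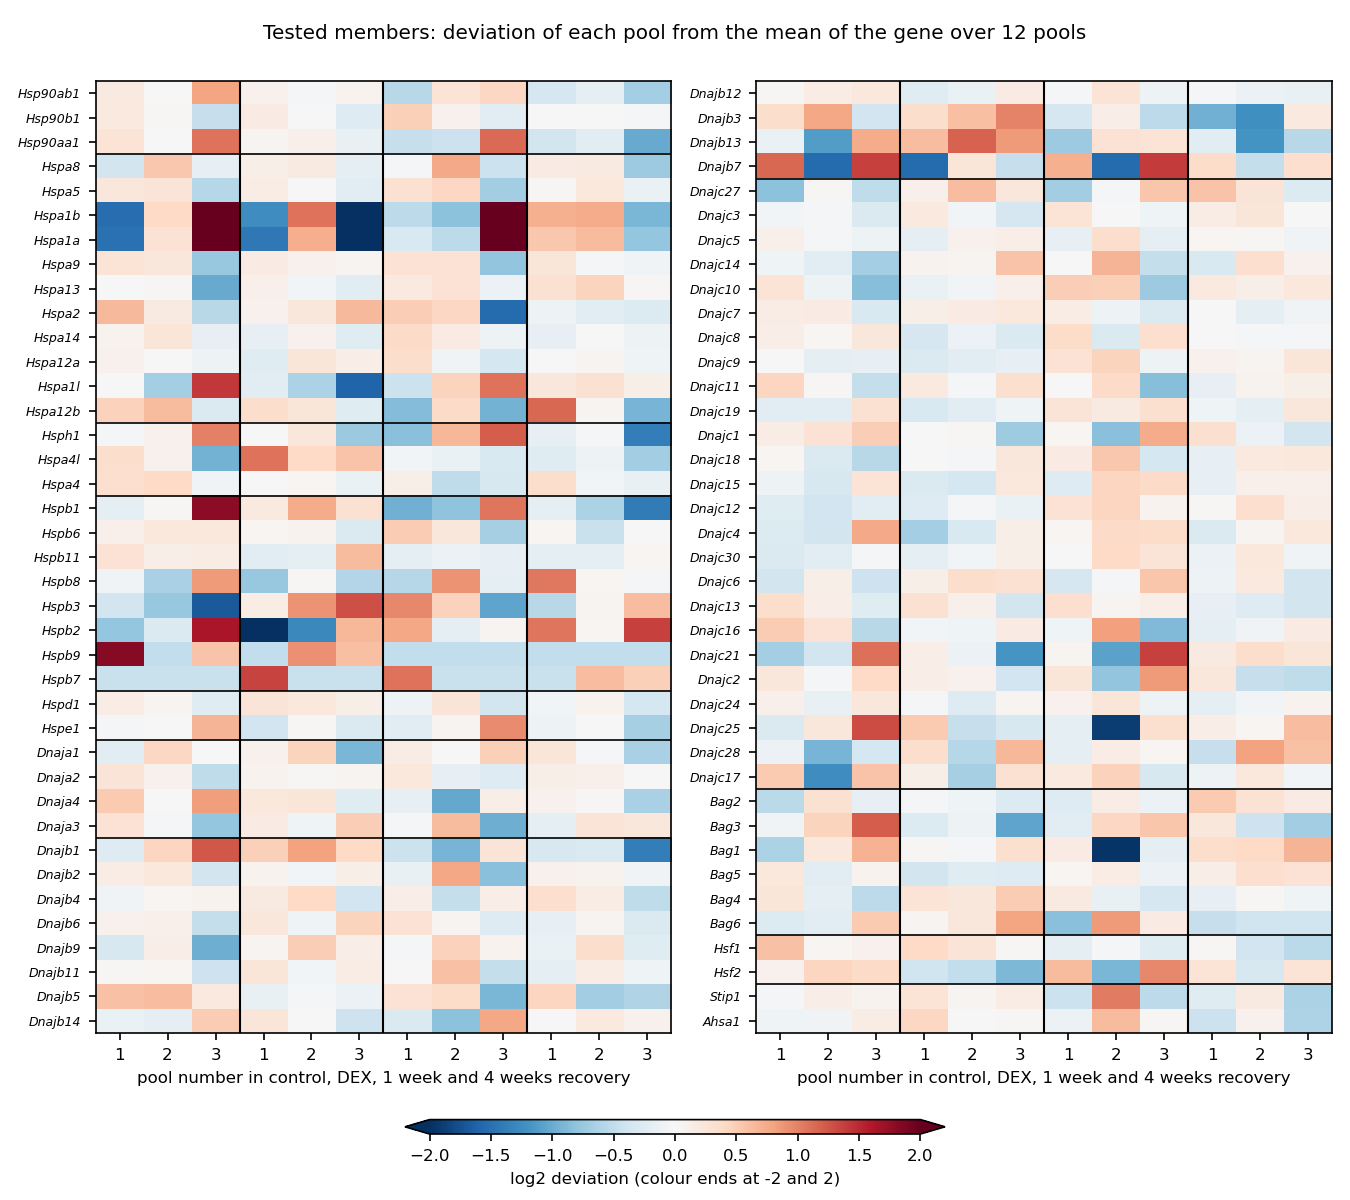
Deviation of each pool from the mean of the gene over the 12 pools, on the log2(value + 0.1) scale, for the 78 tested members (rows, by family and then by falling level) and the pools of control, DEX, 1 week and 4 weeks recovery (columns, left to right). *Hspa1a* and *Hspa1b* are dark red in pool 3 of control and of 1 week recovery and dark blue in pool 3 of DEX.

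The BAG proteins release substrates from HSP70. *Bag1* ranged from 18.1 in 1 week pool 2 to 114 in control pool 3. It was 79.3, 18.1 and 62.1 at 1 week and 90.0, 93.6 and 113 at 4 weeks, with separate pools and a difference of 1.14 ± 0.44 (SE, unadjusted p = 0.0203, adjusted p = 0.808). Without 1 week pool 2, the lowest of all pools, the difference was 0.49. *Bag2*, an inhibitor of the ubiquitin ligase that serves HSP70, was 109.6, 146 and 120.3 at 1 week and 188, 160.5 and 146 at 4 weeks, where the highest 1 week pool lay just below the lowest 4 weeks pool. Its difference from control at 4 weeks was 0.46 ± 0.25 (SE, unadjusted p = 0.0821, adjusted p = 0.811), and 0.26 without control pool 1. *Bag5* was 49.4, 36.4 and 44.8 in control, 33.0, 35.9 and 35.8 under DEX, 43.8, 47.3 and 39.2 at 1 week and 47.0, 53.7 and 52.0 at 4 weeks. All DEX pools lay below the pools of the other 3 groups, and the largest difference was 0.54 ± 0.22 (SE, unadjusted p = 0.0231, adjusted p = 0.366) for 4 weeks recovery minus DEX.

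*Hsf1*, the factor that drives the heat shock response, had 100.2, 68.6 and 71.3 in the control pools, 87.9, 79.8 and 67.8 in the DEX pools, 58.6, 65.0 and 56.5 in the 1 week pools and 68.2, 51.1 and 46.1 in the 4 weeks pools. The 1 week pools lay below all control and DEX pools, and the 4 weeks pools below all control pools. The difference from control was -0.39 ± 0.24 (SE, unadjusted p = 0.116, adjusted p = 1.0) at 1 week and -0.54 ± 0.24 (SE, unadjusted p = 0.0391, adjusted p = 0.765) at 4 weeks. *Hsf1* was not highest in the pools with the most *Hspa1a*. *Hsf2*, a related factor, was 7.00, 8.95 and 8.59 in control and 4.97, 4.66 and 3.48 under DEX, where all pools were lower, a difference of -0.90 ± 0.44 (SE, unadjusted p = 0.0584, adjusted p = 0.747).

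Of the other small heat shock proteins, *Hspb3*, best known from muscle, was 0.944, 0.707 and 0.326 in control and 1.41, 2.45 and 3.25 under DEX, with separate pools and a difference of 1.72 ± 0.65 (SE, unadjusted p = 0.0180, adjusted p = 0.581). It rested on 3 to 30 reads per library in these pools. *Hspb2*, named after its values were seen, shares 30.2% of its exon bases with *Cryab* on the opposite strand and was 0, 0.245 and 1.23 under DEX and 1.66, 0.766 and 2.08 at 4 weeks, with overlapping pools and a difference of 2.06 ± 0.88 (SE, unadjusted p = 0.0337, adjusted p = 0.434).

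For the folding of the glucocorticoid receptor, 17 further genes that are not members were taken from a list, and 1 of 17 passed the F test (0.315% of all genes did). This was *Fkbp5*, an HSP90 cochaperone and known glucocorticoid target, with an F test adjusted p of 0.0229. It had 80.8, 86.8 and 106 in the control pools, 545, 230.1 and 354 in the DEX pools, 72.1, 19.5 and 68.3 in the 1 week pools and 100.2, 133 and 129.7 in the 4 weeks pools. The DEX pools lay above all others. The log2 difference was 1.97 ± 0.42 for DEX minus control (SE, limma adjusted p = 0.0971) and -2.95 ± 0.42 for 1 week recovery minus DEX (adjusted p = 0.00581). The other genes of the 17 with the smallest p, *Tomm34* and *Cdc37l1*, had F test adjusted p of 0.883 and 0.912. Of 25 other chaperones, which included the cytosolic chaperonin, prefoldin and ER cofactors, 24 were tested and 0 passed. The smallest adjusted p belonged to *Cryab* (0.767), *Pfdn6* (0.848) and *Pfdn1* (0.860). *Cryab*, a small heat shock protein of the lens and muscle, was 30.9 in control pool 3 and 20.6 in 1 week pool 3 against 6.54 to 14.4 in the other pools, the same pools that were high in *Hspa1a*.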

How the data were processed

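RNA-seq was made from 12 pools of sorted corticotrophs, 3 per group, on 1 lane. The authors trimmed reads with Trim Galore 0.6.5, aligned them to GRCm38 with STAR 2.7.1a and counted read pairs with featureCounts 2.0.0 in strand-specific mode, although the SMART-V4 and Nextera XT kits do not mark strand. What was deposited is a signal for each gene, made by the authors with edgeR as CPM on the effective library size after TMM scaling. All 271881 deposited signal values above 0 were whole reads within 1e-06 of a read, and the recovered factors equalled those of TMM to 8 decimals. All 12 columns were used.

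The 24736 genes that exceeded 0.1 in 3 or more libraries were fitted as log2(value + 0.1) with limma 3.58.1 (lmFit, eBayes with trend, R 4.3.3) in 1 model of 4 groups with no covariate. Benjamini-Hochberg adjustment covered all genes tested for the F test and for each of 6 contrasts. P-values measure the spread between pools. Fold changes on this scale understate the change of low genes. Count models (edgeR 4.0.16, DESeq2 1.42.0) on recovered reads, other pseudocounts, filters and scalings, array weights, a replicate block and leaving out each library were alternatives. Tested on simulated counts with 200 genes changed 4-fold in DEX against control, limma recovered 197 of them with 10 false calls among 24164 genes. The simulation gave every gene the same dispersion, had no outlying pools and changed only well expressed genes. It therefore does not give the recovery for genes as variable between pools as *Hspa1a* and *Hspa1b*.

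Named are members past the F test, the 5 smallest p of each contrast, a fixed core of 22 genes, the 3 highest levels, members not tested, and genes of the fixed lists outside the rule past the F test or with the 3 smallest p. Others were named after their values were seen. The members and lists were chosen with earlier results of these data known, so no list is independent evidence. Coordinates and exon lengths are from GENCODE M21, promoters from RefSeq.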

Additional observations from a re-analysis of the deposited data

Results flagged for a closer look

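*Fkbp5* is the gene of the receptor cochaperone list whose treated groups differed from each other by a test of the difference itself. Its log2 difference for 1 week recovery minus DEX was -2.95 (limma, adjusted p = 0.00581), and all 3 pools of 1 week recovery lay below all 3 pools of DEX. No member of the heat shock and cochaperone genes passed such a test.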

How the results depend on the processing

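The count of 0 members past the F test and past each contrast held with pseudocounts of 0.5 and 1, with no filter, with a filter above 1, with median-ratio scaling, with plain library totals, with edgeR's quasi-likelihood test and with DESeq2, and in all 12 fits that left out 1 library (0 to 0). The likelihood ratio test gave 3 members past the F test, 1 for DEX against control (*Hspa1a*), 1 for 4 weeks recovery against control (*Hspb1*) and 2 for 1 week recovery against DEX (*Hspa1b*, *Hspa1a*). For 4 weeks recovery against DEX, array weights gave 4 (*Hspa4l*, *Hspb1*, *Dnajb13*, *Dnajb1*). An alternative chosen after seeing the data, leaving out control pool 3 and 1 week recovery pool 3 together, gave 2 (*Hspa4l*, *Hspb1*). The cause was not tested. Of 18 pairs of pools with the same replicate number, 7 had a correlation of deviations over 0.1 (median 0.056, range -0.29 to 0.40). The 36 other pairs had a median of -0.014 and a range of -0.27 to 0.38. The value of 0.40 belonged to control pool 3 and 1 week recovery pool 3. The labels do not say whether pools of the same number were handled together. With replicate numbers entered as a replicate block, 0 members passed in the F test or in any contrast. All genes past the F test numbered 78, and 7 to 1069 over the alternatives, with the highest under array weights.

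The median log2 difference of the members with plain library totals was 0.14 for DEX, -0.20 for 1 week and -0.21 for 4 weeks recovery minus control, -0.35 for 1 week and -0.32 for 4 weeks recovery minus DEX and -0.011 between the recovery groups. That scaling moved the median of all genes by over 0.1 in 5 of these contrasts, to -0.19 for 1 week recovery minus control and -0.29 for 1 week recovery minus DEX. For 1 week recovery minus DEX it was 0.10 with DESeq2 and 0.13 without both pool 3 libraries, and between the recovery groups it was -0.18 without them. Leaving out 1 library, the medians ranged from -0.06 to 0.04 for DEX, -0.01 to 0.09 for 1 week and -0.11 to 0.029 for 4 weeks recovery minus control, from -0.069 to 0.13 and -0.06 to 0.02 for 1 week and 4 weeks recovery minus DEX, and from -0.18 to -0.029 between the recovery groups.

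Over the named members, 7 values newly passed the threshold and 11 changed sign. None could be lost, as no member passed in the main fit. *Hsp90b1* (1 week minus control) was -0.034 with plain totals. *Hspa5* (4 weeks minus control) was -0.087 with plain totals, -0.10 with array weights, -0.21 without control pool 3 or both pool 3 libraries and -0.03 without 4 weeks pool 2, with a range of -0.21 to 0.20 over single libraries left out. *Hspa8* (4 weeks minus 1 week) was 0.10 without 1 week pool 2 and 0.07 without 4 weeks pool 3 (range -0.49 to 0.10). *Hspa9* (DEX minus control) was -0.017 with array weights and -0.15 without control pool 3 or both pool 3 libraries (range -0.15 to 0.37). With 3 pools per group and 1 read worth about the filter value, low genes rest on a few reads, and the noise of amplifying scarce RNA comes on top of counting error.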
